A study of Mus musculus with 6 samples.

Results

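The retinoblastoma family and the E2F transcription factors were followed through Hes1-reporting and non-reporting cells of mouse small-cell lung cancer. The 10 genes were Rb1, Rbl1, Rbl2, E2f1, E2f2, E2f3, E2f4, E2f5, E2f7 and E2f8, out of 22179 genes with an array row annotated to a single gene. They were chosen by name, and each was read from its rows that name no other gene, which gave 11 rows; where a gene had several, the row with the highest mean was used. The tumours came from mice in which Cre, delivered to the airway by adenovirus, deletes conditional alleles of Rb1, p53 (Trp53) and p130 (Rbl2), and which carried a GFP reporter allele for Hes1, a repressor induced by Notch signalling. Tumours taken 5 to 6 months after Cre, pooled from 3 mice, were sorted into GFP-high cells (3 arrays) and GFP-negative cells (3 arrays, labelled negative or low), and total RNA was measured on Affymetrix Mouse Gene 2.0 ST arrays. Both groups come from the same triple-knockout model, so neither is a wild-type control. The sources used here do not give the animals' age and strain, the cell types in which the virus acted, the gates of the sort or whether replicates came from separate pools of mice. The labels call the samples of each group biological replicates, but do not describe their pools. P-values thus reflect only how far these samples differ from each other, part of which may be technical.

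Pocket proteins (pRB from Rb1, p107 from Rbl1, p130 from Rbl2) bind E2F factors and hold their target genes off until cyclin-dependent kinases phosphorylate them. E2f1, E2f2 and E2f3 are classed as activators of genes for S phase, while E2f4 and E2f5 act mostly as repressors together with p107 and p130, partly in the DREAM complex with the MuvB core. E2f7 and E2f8 are atypical members that bind DNA without a dimerization partner, do not bind pocket proteins and repress E2F target genes late in S phase and in G2. Loss of RB1 is a defining lesion of human small-cell lung cancer. Several of these genes, among them E2f1, E2f2, E2f7, E2f8 and Rbl1, are known E2F targets themselves.

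Of the 10 genes, 4 were lower in GFP-high cells (E2f8, Rb1, E2f7 and E2f1), 2 were higher (Rbl2 and Rbl1) and 4 did not pass the test (E2f2, E2f3, E2f4 and E2f5). The changes ran from a 3.94-fold lower level of E2f8 to a 1.44-fold higher level of Rbl2. A gene was called when limma, a linear model fitted to all genes with moderated variances, gave a Benjamini-Hochberg adjusted p under 0.05 over the 22179 genes. Of all genes tested, 30% were called, 13% as higher and 17% as lower, against 2 of 10 higher and 4 of 10 lower here. The 3 GFP-high values lay entirely above or entirely below the 3 GFP-negative values for these 6 genes (2 above, 4 below), and for 44.6% of all genes (20% above, 24.6% below). With 10 genes these shares describe the family and are no test of it. Across all genes the median log2 fold change was 0.01, and all 10 genes remained when the lowest 30% of genes by level were left out.

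**Figure D1:**
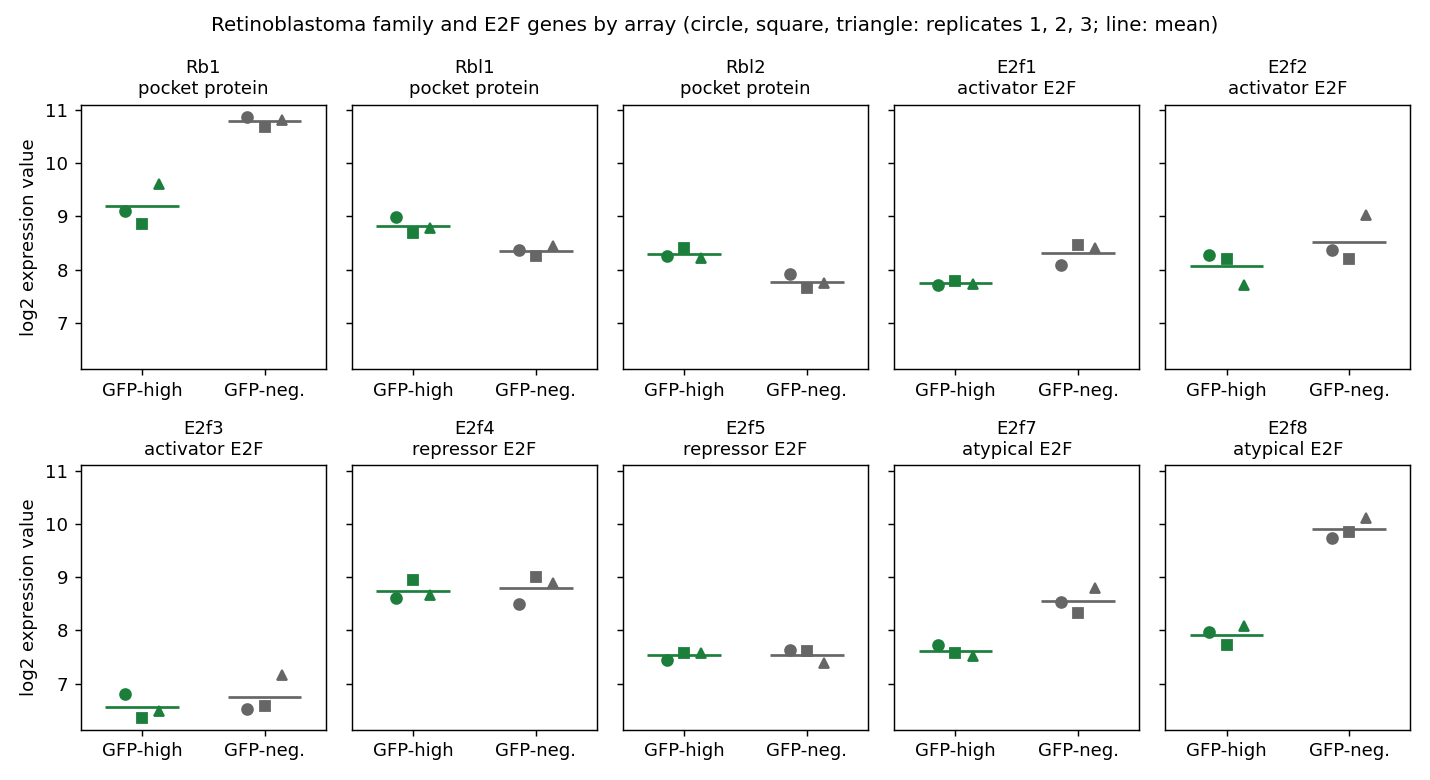
Log2 expression values (vertical axis) of the 10 genes in the 3 GFP-high arrays (green, left) and the 3 GFP-negative arrays (grey, right), with the group mean as a line. The groups do not overlap for Rb1, Rbl1, Rbl2, E2f1, E2f7 and E2f8; levels can be compared within a gene only, since each gene has its own probes.

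The sort itself left a clear mark on the arrays. Hes1 averaged 10.40 in GFP-high cells and 6.85 in GFP-negative cells on the log2 scale, a fold change of 3.54 ± 0.13 (log2, SE, adjusted p = 4.87e-07 by limma). All 10 measured neuroendocrine markers, the defining genes of the labelled tumour type, were lower in GFP-high cells, and their mean log2 value was 7.65, 7.44 and 8.46 in the 3 GFP-high arrays, against 10.03, 10.17 and 10.07 in the GFP-negative arrays. GFP-high replicate 3 thus carried more neuroendocrine signal than the other GFP-high arrays. Markers of club and alveolar cells of the normal lung were also higher in GFP-high cells: 9 of 11 club and secretory markers (array means 11.29 to 11.60 in GFP-high, 7.28 to 8.03 in GFP-negative), 9 of 10 alveolar type 2 markers (9.54 to 9.98 against 5.93 to 6.37) and 8 of 8 alveolar type 1 markers (8.84 to 9.11 against 6.67 to 6.78). Markers of ciliated cells, another normal lung epithelial type, did not share that direction, with 1 of 8 higher, 2 lower and a median log2 fold change of -0.19 (array means 5.60 to 6.04 in GFP-high, 5.50 to 5.75 in GFP-negative). Of 10 leukocyte markers 1 was lower and none higher (array means 5.47 to 5.95 in GFP-high, 5.69 to 5.99 in GFP-negative). Of 8 fibroblast markers 1 was lower (5.19 to 5.89 against 5.34 to 5.47), and of 8 endothelial markers 1 was higher, the VEGF receptor gene Kdr (log2 fold change 3.87), while the others ran from -0.33 to 0.27. The part of these cells in the results on Rb and E2F genes was not tested. In sorted bulk samples, fewer cells of a type and less RNA per cell cannot be told apart.

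Rb1, which encodes the retinoblastoma protein that restrains activator E2Fs, was the pocket protein gene with the largest change. Its log2 value was 9.10, 8.86 and 9.62 in GFP-high cells and 10.87, 10.68 and 10.81 in GFP-negative cells. Every GFP-high array lay more than a full log2 unit below the lowest GFP-negative array. The log2 fold change was -1.60 ± 0.19 (SE, n = 3 per group, 95% interval -2.02 to -1.17), 3.02-fold lower, with an adjusted p of 0.000288 by limma. Only 2.49% of all genes had a log2 fold change at or below that of Rb1. GFP-high replicate 3 held the highest Rb1 value of its group and also the highest mean of neuroendocrine markers. In GFP-negative cells the orders were opposite. There replicate 1 had the highest Rb1 value and the lowest marker mean (10.03), and replicate 2 the lowest Rb1 value and the highest marker mean (10.17). Whether Rb1 follows these markers was not tested. Without GFP-high replicate 3 the Rb1 log2 fold change was -1.81 (adjusted p = 6.35e-05 by limma).

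The annotation places Rb1 on 4 array rows, and they did not move alike. The second row naming Rb1 alone read 5.89, 4.91 and 5.27 in GFP-high cells, against 6.25, 6.72 and 7.12 in GFP-negative cells. It was also lower in GFP-high cells, by a log2 fold change of -1.34 ± 0.28 (SE, adjusted p = 0.00643 by limma with every single-gene row tested). A further pair of rows names both Rb1 and Lpar6, a lysophosphatidic acid receptor gene that lies inside the span of Rb1 in the RefSeq annotation of GRCm38.p6. One of the shared rows read 7.35, 7.37 and 7.73 in GFP-high cells, against 5.84, 6.29 and 5.98 in GFP-negative cells, so it was higher by a mean difference of 1.44 with no overlap. The other shared row read 6.64, 7.03 and 6.48 in GFP-high cells and 6.86, 6.39 and 6.75 in GFP-negative cells, a mean difference of 0.05 with overlapping groups. Which of the genes these shared rows measure cannot be read from the annotation, so they were not tested and not counted for Rb1. The sources used here do not say where any row lies relative to the deleted exons of Rb1 or Rbl2, and no value here checks a deletion; Trp53 was not analysed here.

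**Figure D2:**
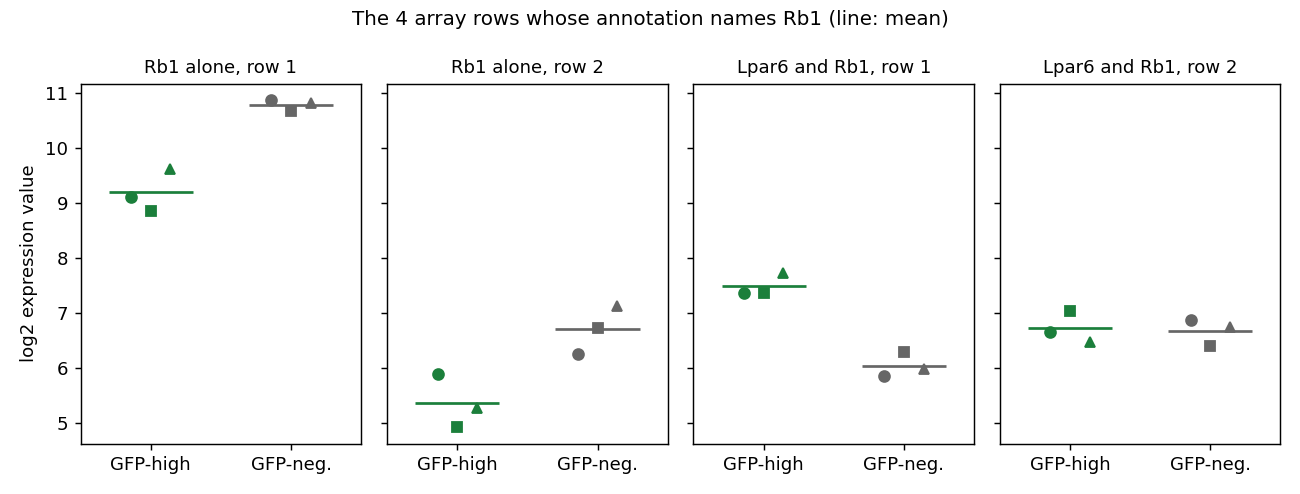
Log2 expression values (vertical axis) on the 4 array rows that name Rb1, for GFP-high (green, left) and GFP-negative arrays (grey, right), with group means as lines. Both rows naming Rb1 alone were lower in GFP-high cells, while the first row shared with Lpar6 was higher by 1.44 and the second differed by 0.05.

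The other pocket protein genes changed in the opposite direction and by less. Rbl2, the gene for p130 and a target of the conditional deletion, read 8.26, 8.41 and 8.23 in GFP-high cells, against 7.92, 7.66 and 7.74 in GFP-negative cells. The groups did not overlap, though the lowest GFP-high value (8.23) was close to the highest GFP-negative value (7.92). The log2 fold change was 0.53 ± 0.12 (SE, 95% interval 0.25 to 0.80; adjusted p = 0.00997 by limma), 1.44-fold higher. Rbl1, the gene for p107 and the pocket protein gene not deleted in this model, read 8.99, 8.68 and 8.78 in GFP-high cells and 8.37, 8.26 and 8.45 in GFP-negative cells. It was 1.37-fold higher, with a log2 fold change of 0.45 ± 0.12 (SE, 95% interval 0.17 to 0.74; adjusted p = 0.0231 by limma). That call was lost without GFP-high replicate 1 (adjusted p = 0.0862), GFP-negative replicate 1 (0.0653) or GFP-negative replicate 2 (0.0731), all by limma. It was also lost without moderation of the variances (0.0537).

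Among the activator E2Fs, E2f1 fell and the other genes did not pass. E2f1, which drives S phase genes and can also drive apoptosis genes, read 7.71, 7.79 and 7.72 in GFP-high cells, against 8.09, 8.46 and 8.41 in GFP-negative cells. The GFP-high arrays lay within a narrow range, all below the lowest GFP-negative array. The log2 fold change was -0.58 ± 0.13 (SE, 95% interval -0.87 to -0.28; adjusted p = 0.00938 by limma), 1.49-fold lower. E2f2 read 8.27, 8.21 and 7.72 in GFP-high cells and 8.36, 8.19 and 9.03 in GFP-negative cells, with overlapping groups. Its log2 fold change of -0.46 ± 0.23 (SE, adjusted p = 0.186 by limma) left a 95% interval from -0.998 to 0.07. E2f3 read 6.81, 6.36 and 6.50 in GFP-high cells, against 6.53, 6.58 and 7.16 in GFP-negative cells, and its interval ran from -0.64 to 0.24 (log2 fold change -0.20, adjusted p = 0.504 by limma). For both E2f2 and E2f3 the highest of the 6 values was that of GFP-negative replicate 3. Without that array the log2 fold changes were -0.21 for E2f2 and 0.0025 for E2f3, and neither passed.

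The repressor E2Fs showed the smallest differences of the 10 genes. E2f4, the main E2F partner of p130 in resting cells, read 8.61, 8.94 and 8.67 in GFP-high cells, against 8.50, 9.01 and 8.89 in GFP-negative cells. Its log2 fold change was -0.06 ± 0.16 (SE, 95% interval -0.43 to 0.31; adjusted p = 0.829 by limma). E2f5, which also partners p130, read 7.44, 7.58 and 7.57 in GFP-high cells, against 7.63, 7.62 and 7.39 in GFP-negative cells. Its log2 fold change was -0.01 ± 0.12 (SE, 95% interval -0.28 to 0.26; adjusted p = 0.949 by limma). The groups overlapped for both genes, and the intervals bound the changes these arrays could have missed.

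The atypical repressors moved furthest among the E2Fs. E2f8 read 7.96, 7.72 and 8.08 in GFP-high cells, against 9.75, 9.86 and 10.10 in GFP-negative cells. The gap between the groups was several times the spread within either. The log2 fold change was -1.98 ± 0.14 (SE, 95% interval -2.31 to -1.65; adjusted p = 2.21e-05 by limma), 3.94-fold lower, and 1.30% of all genes had a value at or below it. E2f7, which acts redundantly with E2f8, read 7.73, 7.58 and 7.52 in GFP-high cells and 8.54, 8.33 and 8.80 in GFP-negative cells. It was 1.93-fold lower, with a log2 fold change of -0.95 ± 0.14 (SE, 95% interval -1.27 to -0.62; adjusted p = 0.00118 by limma). Both calls held when any single array was left out, with log2 fold changes from -2.06 to -1.88 for E2f8 and from -1.06 to -0.82 for E2f7.

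**Figure D3:**
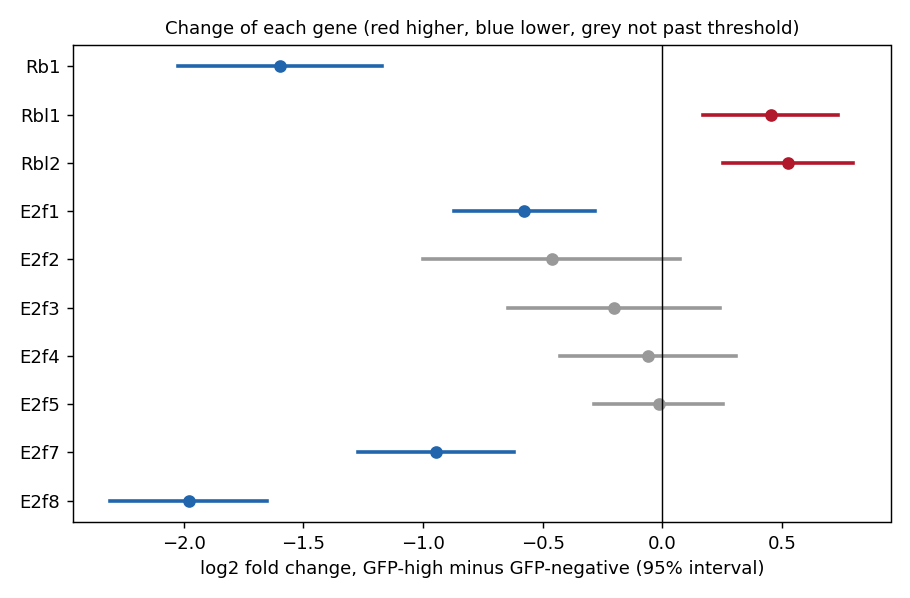
Log2 fold change, GFP-high minus GFP-negative (horizontal axis), of each of the 10 genes with its 95% interval from the limma fit; red marks genes called higher, blue genes called lower and grey genes not past the threshold. E2f8, Rb1, E2f7 and E2f1 lie left of 0, Rbl1 and Rbl2 right of 0, and the intervals of the other genes include 0.

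Because several of these genes are E2F targets, the promoters of the atypical E2Fs, of Rbl1 and of E2f3 are shown from RefSeq (GRCm38.p6). They contrast genes that were lower (E2f8, E2f7), higher (Rbl1) and not called (E2f3) and that all hold an E2F word. Only genes with an E2F word are shown, so that all hold one follows from the choice. For E2f3 the entry was also picked because it holds an E2F word. The called genes whose entries held none, E2f1 (lower) and Rbl2 (higher), are not shown. The words searched, on both strands, were TTCCCGC, its variant TTCGCGC, the variant TTGCCGC and the variant TTGGCGC, which are cores of E2F sites, and TTTGAA, the core of the cell cycle homology region (CHR) bound by the MuvB core. No 2 matches overlapped in the windows shown. Matches are in capitals, the strand is that of the gene, and the windows hold only bases before the annotated start.
E2f8: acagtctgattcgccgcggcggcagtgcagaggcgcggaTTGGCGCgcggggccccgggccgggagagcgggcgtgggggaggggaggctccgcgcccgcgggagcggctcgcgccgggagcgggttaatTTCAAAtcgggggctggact
E2f7: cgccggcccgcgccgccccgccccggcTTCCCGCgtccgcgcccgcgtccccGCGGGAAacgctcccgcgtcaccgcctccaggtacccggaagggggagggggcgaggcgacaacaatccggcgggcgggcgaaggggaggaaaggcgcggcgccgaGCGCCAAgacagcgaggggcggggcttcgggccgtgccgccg
Rbl1: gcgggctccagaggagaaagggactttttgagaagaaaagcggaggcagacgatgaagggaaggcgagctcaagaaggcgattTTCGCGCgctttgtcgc
E2f3: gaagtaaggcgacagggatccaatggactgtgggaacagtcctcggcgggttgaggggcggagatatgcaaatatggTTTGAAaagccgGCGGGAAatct
The E2f8 window is chr7:48881597-48881746 (minus strand), the E2f7 window chr10:110745189-110745388 (plus strand), the Rbl1 window chr2:157204535-157204634 (minus strand) and the E2f3 window chr13:29986064-29986163 (minus strand).

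The E2f8 window held an E2F word that begins 111 bases before the start and a CHR word, on the opposite strand, that begins 20 bases before it. The E2f7 window held 3 E2F words, beginning 223, 198 and 92 bases before the start, and the Rbl1 window 1 that begins 17 bases before it. The E2f3 window held an E2F word beginning 11 bases and a CHR word beginning 23 bases before the start. Another E2F word of the E2f3 entry, TTGGCGC, begins at base 19 after the start and so lies outside the window. Window lengths differed (150 bases for E2f8, 200 for E2f7, 100 for Rbl1 and 100 for E2f3), so word counts cannot be compared between the windows. Over whole promoter entries of 300 bases (250 before and 50 after a start), 5 of the 7 genes with an entry held an E2F word (E2f2, E2f3, E2f7, E2f8 and Rbl1), against 10.9% of all 27025 genes in the table. E2f1 and Rbl2 held none in this window. A CHR word was present in 4 of the 7 (E2f2, E2f3, E2f8 and Rbl2), against 20.2% of all genes. A gene was counted when any of its entries held a word. For E2f2 the E2F word and the CHR word lay in different entries. Rb1, E2f4 and E2f5 had no entry in the table. The matches describe these letters, and whether they go with the direction of change was not tested. E2F words occurred in E2f7 and E2f8, which were lower, in Rbl1, which was higher, and in E2f2 and E2f3, which were not called.

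The other pathway genes differed by group. The lists of other pathway genes held 114 genes in 8 groups, of which 105 were measured and 9 were not analysed here. Of the 105, 63 were lower, 6 higher and 36 did not pass, beside 17% lower and 13% higher of all genes; the G1/S and G2/M lists gave 20 and 23 of the 63. Of the dimerization partners and E2f6, 1 of 3 was lower. Tfdp1, the main dimerization partner of the typical E2Fs, fell to 9.40, 9.51 and 9.56 in GFP-high cells, against 10.19, 10.23 and 10.52 in GFP-negative cells (log2 fold change -0.82 ± 0.13 SE, adjusted p = 0.00127 by limma). Its relative Tfdp2 (-0.24, adjusted p = 0.149 by limma) and the repressor E2f6 (-0.37, adjusted p = 0.0504 by limma) did not pass. Without GFP-negative replicate 2, and under 5 of the other alternatives, 2 of these 3 genes were called lower.

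The MuvB core joins p130 and E2f4 in DREAM and later B-Myb and FoxM1 on mitotic genes. The list of the core, the Myb genes and Foxm1 had 6 of 8 genes lower and none higher (median log2 fold change -0.68, against 0.01 over all genes). Over all genes 17% were lower and 13% higher. The Myb family gene Mybl1 fell by 1.55 ± 0.18 on the log2 scale (SE), the mitotic factor Foxm1 by 1.03 ± 0.21, the MuvB subunit Lin9 by 0.91 ± 0.14 and Mybl2, the gene for B-Myb, by 0.74 ± 0.16. A second row for Mybl2, at a lower level, differed by -0.07. Of the 5 core genes 3 were lower: Lin9, Lin54 (-0.62) and Rbbp4 (-0.39), while Lin37 (-0.15) and Lin52 (0.03) did not pass. Rbbp4 passed narrowly (adjusted p = 0.0482 by limma). When a single array was left out, 5 to 6 genes of the list were lower.

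G1/S genes bound by E2F were lower in part, and G2/M genes of the DREAM and MuvB complexes nearly throughout. Of 32 measured G1/S genes bound by E2F, 20 were lower, none higher and 12 did not pass (median log2 fold change -0.50). The count of 20 fell to 13 without moderation of the variances and to 16 without GFP-high replicate 2 or GFP-negative replicate 3. Over all genes 17% were lower and 13% higher. Rrm2, a subunit of ribonucleotide reductase, fell by 1.31 ± 0.23 on the log2 scale (SE), the chromatin assembly factor Chaf1b by 1.25 ± 0.12, cyclin E1 (Ccne1) by 1.14 ± 0.15 and the phosphatase gene Cdc25a by 1.13 ± 0.16. A second, lower row for Rrm2 differed by -0.44. Of 24 measured G2/M genes of the DREAM and MuvB complexes, 23 were lower and none higher (median -1.29). Ube2c (-1.67 ± 0.22), cyclin A2 (Ccna2, -1.65 ± 0.19), the phosphatase gene Cdc25c (-1.53 ± 0.18) and the checkpoint kinase gene Bub1 (-1.49 ± 0.16, all SE) led them. The exception, the kinesin gene Kif23 (0.16 ± 0.19, adjusted p = 0.589 by limma), is named after its value was seen.

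**Figure D4:**
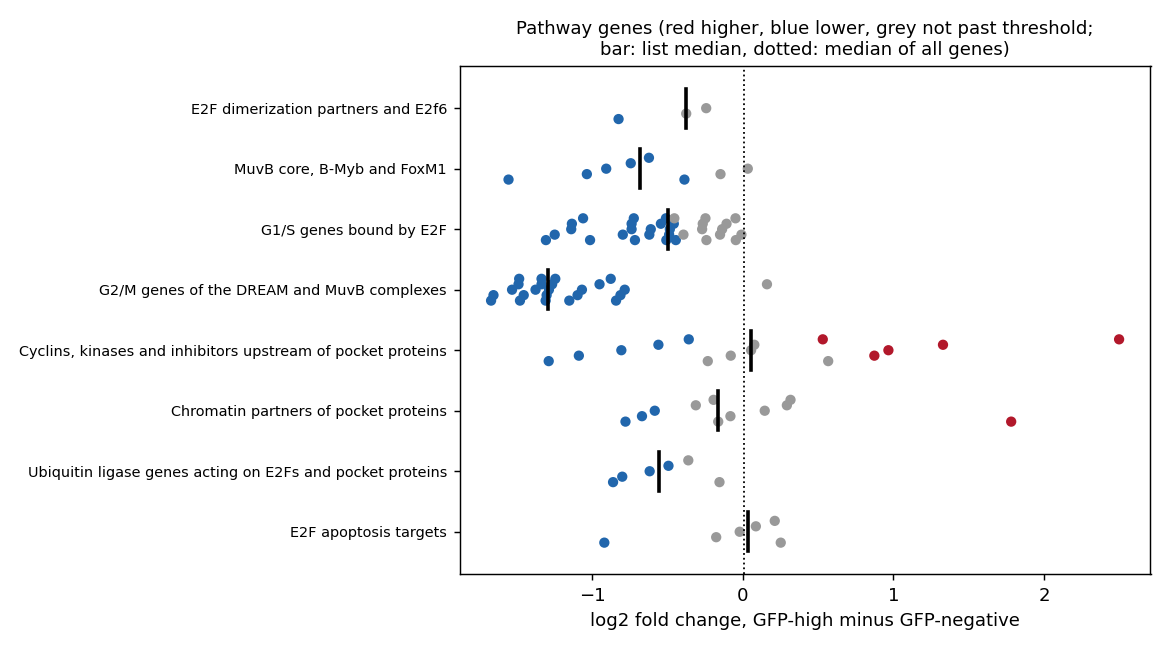
Log2 fold change, GFP-high minus GFP-negative (horizontal axis), of each measured gene in the 8 pathway lists; each point is a gene, red called higher, blue called lower, grey not past the threshold, with the list median as a bar and the median of all genes dotted. In the G1/S list 20 of 32 genes and in the G2/M list 23 of 24 were lower, while the list of cyclins, kinases and inhibitors had 5 genes on each side.

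The level of these cell cycle lists also varied between arrays of one group. The mean log2 value of the G2/M list was 7.48, 7.31 and 7.49 in GFP-high cells, against 8.63, 8.31 and 8.91 in GFP-negative cells. Within GFP-negative cells, replicate 3 was highest and replicate 2 lowest, which was also the order of E2f7 and of E2f2, while E2f8 was lowest in replicate 1. Within GFP-high cells it was E2f8 that had the order of the list (replicate 3 highest, replicate 2 lowest), whereas E2f7 and E2f2 were lowest in replicate 3. The G1/S list averaged 8.10, 7.96 and 8.09 in GFP-high cells and 8.55, 8.48 and 8.77 in GFP-negative cells. With 3 arrays a group, these orders are a description only.

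**Figure D5:**
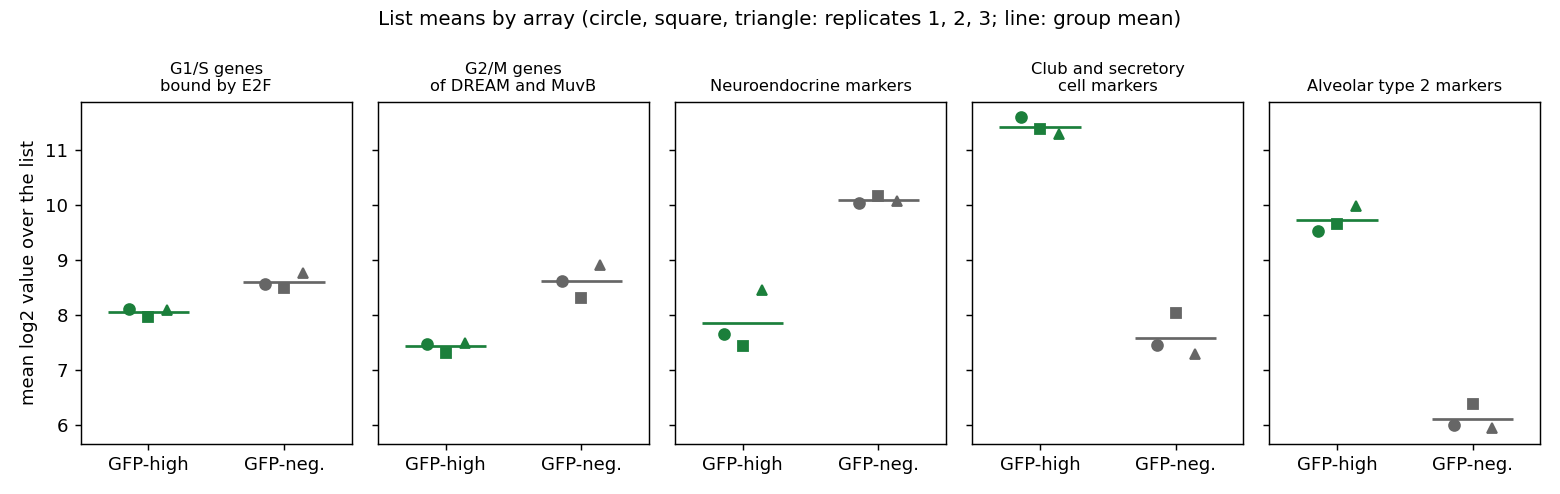
Mean log2 value over the measured genes of a list (vertical axis) in each GFP-high array (green, left) and GFP-negative array (grey, right), with group means as lines. G1/S, G2/M and neuroendocrine lists were lower and club and alveolar type 2 lists higher in every GFP-high array, and GFP-high replicate 3 had the highest neuroendocrine mean of its group, 8.46.

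The kinases and inhibitors that act on the pocket proteins split. Of 15 measured genes, 5 were higher, 5 lower and 5 did not pass (median log2 fold change 0.06). Over all genes 13% were higher and 17% lower. When any single array was left out, 4 were lower and 5 to 6 higher. Cdk6, a kinase that phosphorylates pocket proteins with D cyclins, was 6.19, 6.43 and 6.44 in GFP-high cells, against 4.24, 2.69 and 4.64 in GFP-negative cells, where it lay low on the scale (log2 fold change 2.50 ± 0.42 SE, adjusted p = 0.00216 by limma). Cyclin D1 (Ccnd1) rose by 1.33 ± 0.10, and cyclin D2 (Ccnd2, 0.97 ± 0.18), cyclin D3 (Ccnd3, 0.87 ± 0.15) and the inhibitor Cdkn2b (0.53 ± 0.12) were the other genes higher. The inhibitors Cdkn1a (-1.29 ± 0.17) and Cdkn2d (-1.09 ± 0.14) led the falls, with Cdkn2c (-0.81 ± 0.13), Cdk4 (-0.56 ± 0.11) and Cdkn2a (-0.36 ± 0.11, all SE) below 0 as well. Ccnd2, Ccnd3, Cdkn2b, Cdkn2c, Cdk4 and Cdkn2a are named after their values were seen. All 3 D-type cyclins were thus higher, while the cyclin E1 gene Ccne1 was lower and the other cyclin E gene, Ccne2, was not analysed here.

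Chromatin partners of the pocket proteins had 1 gene higher, 3 lower and 7 not passing of 11 (median log2 fold change -0.16). Over all genes 13% were higher and 17% lower, and counts this small do not set the list apart from those shares. The SWI/SNF ATPase gene Smarca2 rose by 1.78 ± 0.28 on the log2 scale (SE) and its alternative Smarca4 fell by 0.58 ± 0.11. Smarca2 read 8.99, 9.10 and 9.13 in GFP-high cells, against 6.671, 7.199 and 7.9996 in GFP-negative cells. The histone deacetylase genes Hdac2 and Hdac1 fell by 0.78 ± 0.11 and 0.67 ± 0.15. In the list of ubiquitin ligase genes acting on E2Fs and pocket proteins, 4 of 6 were lower (median -0.55). That list also holds an inhibitor and a cofactor, so its count gives no direction of ligase activity. Fbxo5, an inhibitor of the anaphase-promoting complex and a known E2F target (-0.86 ± 0.16), and Mdm2 (-0.80 ± 0.13) led it. Skp2, an F-box protein that targets p27 for degradation (-0.62 ± 0.14), and Fzr1, the Cdh1 activator (-0.49 ± 0.12, all SE), were also lower. Cks1b, a cofactor of Skp2 (-0.15), and the F-box gene Btrc (-0.36) did not pass. Among E2F apoptosis targets only Trp73 passed of 6 measured, lower by a log2 fold change of -0.92 ± 0.17 (SE, adjusted p = 0.00365 by limma), and the list median was 0.03. The apoptosome gene Apaf1 (-0.02), Casp8ap2 (0.09) and the BH3-only genes Bbc3 (-0.18), Pmaip1 (0.21) and Bcl2l11 (0.25) did not pass.

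Predicted and unannotated gene models were left out of a search for similar profiles. The genes whose 6 log2 values, each centred on its own mean, lay closest to those of a family member were found over the rest. For Rb1 they were Rph3al (Euclidean distance 0.108), Pcdhb19 (0.196) and Rims3 (0.209), with log2 fold changes of -1.58, -1.60 and -1.64. For E2f8, the E2F gene with the largest change, they were Mfng (0.182), Adgrl1 (0.225) and Hdac9 (0.246), with log2 fold changes of -1.89, -1.91 and -1.98. For Rbl2 they were Rwdd3 (0.118), Arrdc2 (0.12) and Slc25a38 (0.134), with log2 fold changes of 0.49, 0.46 and 0.45. The distances run over 6 arrays that fall into 2 groups, so they mostly reflect the size of the difference between the groups.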

How the data were processed

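The authors deposited log2 expression values made with RMA (background correction, normalization between arrays and summary of probes), per the submitters' processing notes; the sources used here name neither its version nor an annotation release. The table held 41344 rows. The platform annotation named 1 gene for 23520 rows, several for 1814 and none for 16010, and 22179 genes were tested on 1 row each (highest mean). Groups were compared with limma 3.58.1 in R 4.3.3 (lmFit and eBayes, two-sided, 4.5 prior and 4 residual degrees of freedom), without a block. A permutation of 3 against 3 arrays cannot give a p below 0.1, so none is reported. The fit was tested on simulated data. RMA gives arrays like distributions, which hides any change common to most genes, and low values are compressed; the number of arrays limits the precision. Figures used Python 3.11.15 and matplotlib 3.10.9.

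The family, the pathway and marker lists and the naming rule were chosen with earlier results of these data known. The rule named all 10 genes, up to 4 genes per pathway list by absolute change (all in lists of 8 or fewer), and the 3 nearest profiles of Rb1, Rbl2 and the most changed E2F. Samples sharing a replicate number did not deviate together in every pair, and the labels give no pairing, so the numbers were not treated as pairs. That check cannot exclude shared pools. Alternatives covered scaling, a filter on low values, rows per gene, moderation, array weights, a block, a minimum fold change and leaving out arrays.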

Additional observations from a re-analysis of the deposited data

How the results depend on the processing

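The directions and calls of Rb1 and E2f8 held under all 16 alternatives. Requiring an absolute log2 fold change of 1 left 2584 genes (1249 higher, 1335 lower), 2 of the 10 family genes (0 higher, 2 lower) and 31 pathway genes (3 higher, 28 lower), against 6661, 6 and 69 without it, since it removes small changes by construction. Without moderation 1 family gene was called higher, as Rbl1 was lost. Leaving out 1 array gave 5408 to 6116 genes called (2374 to 2734 higher, 2940 to 3382 lower), 5 to 6 family genes (1 to 2 higher, 4 lower each time) and 63 to 69 pathway genes. Log2 fold changes near 0 changed sign. With 1 array left out, E2f3 ran from -0.327 to 0.0025 (above 0 without GFP-negative replicate 3), E2f4 from -0.209 to 0.0439 (above 0 without GFP-high replicate 1 or GFP-negative replicate 2) and E2f5 from -0.0943 to 0.030 (above 0 without GFP-high replicate 1, GFP-negative replicate 1 or GFP-negative replicate 2). E2f5 was at 0.0499 with quantile normalization; none passed, and the cause was not tested. In the fit with replicate number as a block, 6172 genes were called, with 6 family genes and 66 pathway genes. Deviations of same-numbered arrays correlated at 0.114, -0.0256 and -0.00159, and those of differently numbered arrays at -0.0732 to 0.0632. With 3 arrays a group, neither these values nor the block result can show whether same-numbered samples were paired. Without moderation the G1/S list had 13 genes lower against 20, and the MuvB list 3 against 6. On the scale of the deposited values, 3 arrays per group limit what small changes can show. The same holds for changes with a wide spread between arrays, such as that of E2f2.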
